A study of Homo sapiens with 2 samples.

Results

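The genes described here are those of the insulin-like growth factors (IGF1 and IGF2), of the receptor IGF2R and of the IGF binding proteins IGFBP1 to IGFBP7, 10 genes in all, and they were read in U87 cells after transfection of a HOXD9 siRNA. They were chosen by name, with earlier results of these data known, and every probe set annotated to 1 of them alone was taken. Of the 10 genes, 9 had such a probe set, among 19775 genes with one on the array, and together they had 24 probe sets. IGF2 had none, because its probe sets are annotated to IGF2 and to the INS-IGF2 readthrough gene together. The U87 line, an established one, comes from a human glioblastoma. RNA was collected on the second day (by the paper) after transfection of either a control siRNA or HOXD9 siRNA-2, each at 50 nM. It was hybridized to 1 Affymetrix Human Genome U133 Plus 2.0 array per condition. The sample records give seeding 48 h before transfection and 1 µg of labelled RNA for each array. The paper's methods give other values for seeding time and RNA amount. All values come from 1 cell line, and HOXD9 was targeted by 1 siRNA, so effects of that siRNA on other transcripts cannot be told apart from those of HOXD9 silencing. Since each condition had 1 array, the ratios below carry neither an SD nor a p-value.

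IGF1 and IGF2 are secreted peptides that drive growth and survival through the tyrosine kinase receptor IGF1R. IGF2R, the cation-independent mannose 6-phosphate receptor, binds IGF2 without such a kinase, brings it to lysosomes for breakdown, and sorts lysosomal enzymes. IGFBP1 to IGFBP6 bind both peptides with high affinity, hold them away from the receptor, and can release them when cut by proteases, whereas IGFBP7 binds them weakly. IGFBP2 is known for high expression in many glioblastomas.

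The deposited values were linear signal intensities. Over all probe sets the median signal was 22.5 in control siRNA-transfected and 18.3 in HOXD9 siRNA-transfected cells, and the log2 ratio of HOXD9 siRNA-2 over control siRNA had a median of -0.28 among the 27307 probe sets above the signal filter, a mean signal of 19.8. Centering each array on its median added 0.30 to every log2 ratio. The highest signal of 27 probe sets for Bacillus subtilis control transcripts, 18.4, served as background level for both arrays. HOXD9 itself read 19.7 with control siRNA and 5.58 with the HOXD9 siRNA on one probe set, at least 1.07-fold lower, and 9.33 and 11.4 on the other, within the background. After centering all HOXD9 signals lay within the background, so that these arrays give no check of its silencing. The paper measured HOXD9 in U87 cells separately by qRT-PCR, on the same day after transfection, and presents its siRNAs as reducing it. GAPDH, a glycolytic enzyme, had a log2 ratio of -0.02 on its brightest probe set. Of 5 genes of glial and glioma cells, VIM, CD44 and NES were above the filter and GFAP and S100B were within the background on both arrays. The leukocyte gene PTPRC was within the background, EPCAM read 28.2 and 23.8, and PECAM1 was above the background on 1 of 5 probe sets (43.4 and 40.3).

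In these cells 7 of the 10 genes gave a readable signal, namely IGF2R, IGFBP1, IGFBP3, IGFBP4, IGFBP5, IGFBP6 and IGFBP7, and none of them passed 2-fold. On their 11 probe sets above the filter the log2 ratios went from -0.81 (IGF2R) to 0.32 (IGFBP1), with a median of -0.16 beside -0.28 over all probe sets. None of the 11 was lower by more than 2-fold, where 6.69% of all probe sets above the filter were, and none was higher, where 0.615% were. After centering the counts were again 0 and 0, beside 2.94% and 1.51%. By gene, on the brightest probe set, 0 of 7 were lower and 0 of 7 higher, beside 4.95% and 0.516% of 11624 genes. Given such small shares over all probe sets, a count of 0 does not set these genes apart. On the brightest probe sets the median of the 7 genes was -0.36 beside -0.25 over all genes, the other way round from the medians over probe sets. IGF1 and IGFBP2 were not above the background on both arrays on any probe set, and IGF2 had no probe set of its own.

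**Figure D1:**
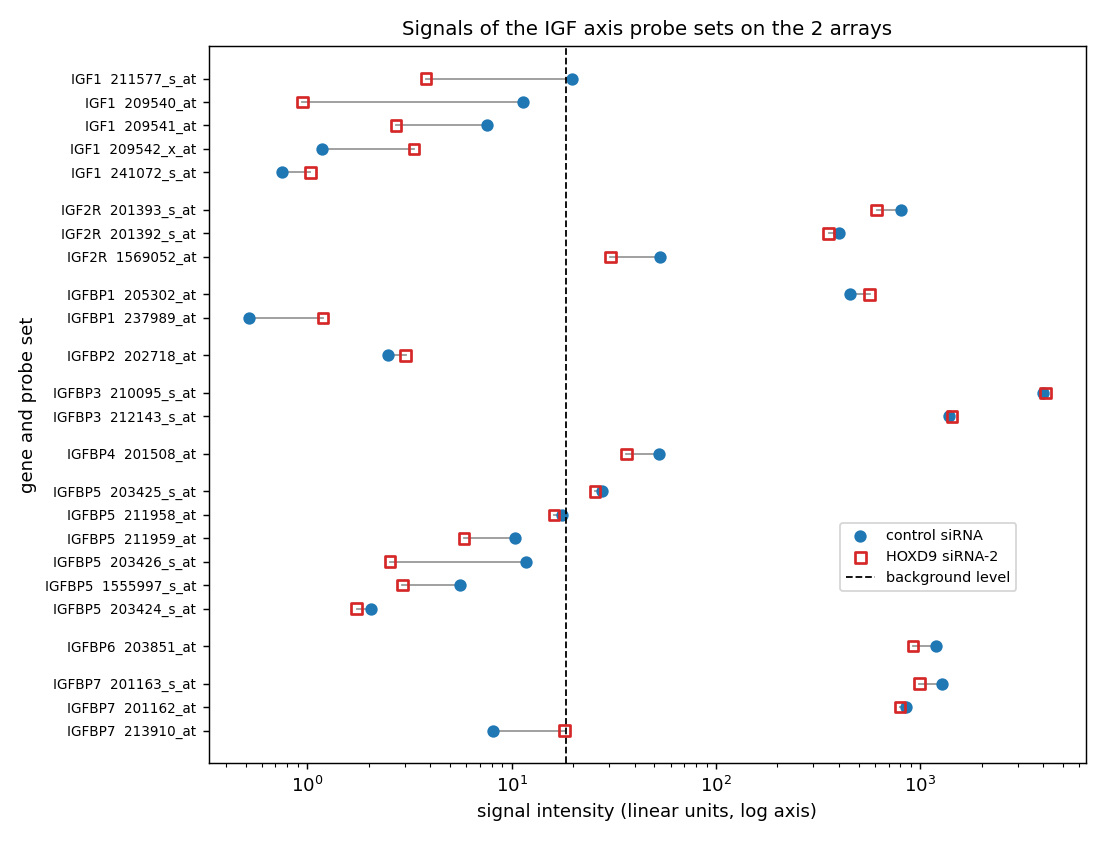
Each row (y axis) is 1 probe set of the IGF axis, with its signal intensity (x axis, linear units on a log axis) for control siRNA as a filled circle and for HOXD9 siRNA-2 as an open square, and the dashed line marks the background level of 18.4. The 11 probe sets with both signals to the right of the line have circles and squares close together, whereas the widest gaps lie to its left or across it.

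The next pair of sequences covers the start regions of the binding proteins with the highest and the lowest log2 ratio among those for which a promoter was at hand, IGFBP3 and IGFBP4. They are RefSeq promoters of GRCh38.p14, 250 bases before to 50 after the transcription start, and are shown because HOXD9 is a homeodomain transcription factor. Capitals mark the letters of 3 searched motifs on either strand, namely the TTAT core favored by posterior HOX proteins (or ATAA), the GC box GGGCGG (or CCGCCC) and the TATA box TATAAA (or TTTATA), which contains the letters ATAA.
IGFBP3, chr7:45921223-45921522, minus strand: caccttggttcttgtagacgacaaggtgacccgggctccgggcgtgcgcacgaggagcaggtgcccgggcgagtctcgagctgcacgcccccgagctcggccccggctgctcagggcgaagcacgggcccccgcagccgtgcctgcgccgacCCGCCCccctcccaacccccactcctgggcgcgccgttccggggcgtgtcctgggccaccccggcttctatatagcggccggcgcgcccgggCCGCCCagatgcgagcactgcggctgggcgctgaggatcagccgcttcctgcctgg
IGFBP4, chr17:40443200-40443499, plus strand: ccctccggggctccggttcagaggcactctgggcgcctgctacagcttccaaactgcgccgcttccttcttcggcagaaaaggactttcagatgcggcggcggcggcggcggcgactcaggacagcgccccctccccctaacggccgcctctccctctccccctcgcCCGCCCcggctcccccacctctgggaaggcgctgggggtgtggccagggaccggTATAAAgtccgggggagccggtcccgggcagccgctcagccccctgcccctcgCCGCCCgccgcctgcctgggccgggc

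The IGFBP3 sequence held 2 GC boxes, no TTAT and no exact TATAAA, with a GC content of 74.7%. It does hold the near form TATATA, which was outside the search. That of IGFBP4 held 2 GC boxes and a TATA box at -29 from the start, inside which the only ATAA lay at -28, with a GC content of 74.0%, against a median of 58.7% over all promoters. Promoters were found for 7 of the 10 genes, at 10 start sites, and there was none for IGF2, IGFBP1 and IGFBP7. TTAT was present in 5 of these 10, as in 55.4% of 35116 promoters of the same length, the GC box in 6 of 10 (45.0% of all) and the TATA box in 1 of 10 (11.5%). A match of these letters is a description and not a binding site.

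IGF1, the circulating and local growth factor, was not readable. Its probe set 211577_s_at gave 19.8 with control siRNA and 3.82 with the HOXD9 siRNA, so that it was at least 1.08-fold lower. After centering, the control signal was 0.875 of the background level and no fold can be given. The other 4 IGF1 probe sets read between 0.750 and 11.4 on both arrays, all within the background. Their measured ratios went both ways, and no level of IGF1 can be taken from them.

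IGF2R, the clearance receptor of IGF2, was above the background on all 3 of its probe sets. The brightest, 201393_s_at, gave 809 with control siRNA and 612 with the HOXD9 siRNA, a log2 ratio of -0.40. Probe set 201392_s_at gave 398 and 356, a log2 ratio of -0.16. The dimmest, 1569052_at, gave 53.5 and 30.5, a log2 ratio of -0.81 and the lowest among the 11. All 3 were lower with HOXD9 siRNA-2 as deposited, but after centering they stood at -0.10, 0.14 and -0.51, so that the middle one changed sign.

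As no replicate error could be had, probe sets that read the same gene were compared with each other. For this the probe sets above the filter were divided by mean signal into 3 groups of like size. The pooled SD of the log2 ratios within a gene was 0.18 in the brightest group (mean signals over 218) and 0.67 in the dimmest group (under 58.6). This SD holds no variation between cultures or arrays, and it is not the spread of probe sets around the median of a group. Of the 11 probe sets, 8 lay in the brightest group and 3 in the dimmest. The 0.65 between the highest and lowest IGF2R probe set spans a bright and a dim one. The dim one lay 0.47 below the median of the dimmest group, where 20.2% of the probe sets had a ratio as low. Past 2-fold in either direction were 1.80% of the brightest group and 15.0% of the dimmest.

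IGFBP1, a binding protein of liver and decidua whose gene is repressed by insulin, had the highest log2 ratio of the 11. Probe set 205302_at read 453 with control siRNA and 565 with the HOXD9 siRNA, 1.25-fold higher or a log2 ratio of 0.32. Its log2 ratio was 0.62 after centering, 0.59 after quantile normalization and 0.58 after removal of a loess trend. These scalings raised the median of all probe sets above the filter by 0.30, 0.29 and 0.29. The sign kept under each scaling is therefore no separate support. The probe set lay 0.55 above the median of the brightest group, where 0.813% of the probe sets had a ratio as high. The rank describes this pair of arrays and is no test. The other IGFBP1 probe set read 0.518 and 1.19, far within the background, and so gives no second reading.

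IGFBP3, the main carrier of the IGFs in serum, is the gene next to IGFBP1 on the chromosome. Its 2 probe sets both gave high signals. Probe set 210095_s_at read 3993 with control siRNA and 4105 with the HOXD9 siRNA, and 212143_s_at read 1388 and 1427. Both had a log2 ratio of 0.04, or 103% of the control. They lay 0.27 above the median of the brightest group, and 8.39% and 8.36% of its probe sets had a ratio as high. IGFBP3 thus read nearly alike on both arrays as deposited, while the typical probe set read 82.5% of the control. After centering its log2 ratios were 0.34 on both probe sets. They were smaller under the other scalings, 0.18 and 0.26 after quantile normalization and 0.19 and 0.25 after removal of a loess trend.

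IGFBP2 and IGFBP5 are also neighbors on the chromosome. IGFBP2 read 2.49 with control siRNA and 3.03 with the HOXD9 siRNA on its only probe set, within the background, so its mRNA was not detectable on these arrays. IGFBP5, a binding protein with affinity for bone matrix and extracellular matrix, was above the background on 1 of 6 probe sets. That one, 203425_s_at, read 27.6 and 25.6, a log2 ratio of -0.11, or 0.19 after centering. Of the others, 211958_at came nearest to the background level, with 17.6 and 16.2. Probe set 203426_s_at had the widest gap, 11.8 and 2.54, but both signals were within the background and no fold is given.

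IGFBP4, a binding protein that mostly inhibits IGF action and is cut by the protease PAPPA, read 52.8 with control siRNA and 36.5 with the HOXD9 siRNA on its only probe set. Its log2 ratio of -0.53 was the lowest among the binding proteins and stood at -0.23 after centering. It lay 0.19 below the median of the dimmest group, where 36.1% of the probe sets had a ratio as low. IGFBP6, which prefers IGF2 over IGF1, read 1189 and 921 on its only probe set, a log2 ratio of -0.37. It lay 0.14 below the median of the brightest group, where 27.3% of the probe sets had a ratio as low, and stood at -0.07 after centering.

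IGFBP7, the weak binder found in the matrix of blood vessels, had 2 of 3 probe sets above the background. Probe set 201163_s_at read 1270 with control siRNA and 990.1 with the HOXD9 siRNA, a log2 ratio of -0.36. On 201162_at the signals were 852 and 797, a log2 ratio of -0.10. After centering these values were -0.06 and 0.20, of opposite sign. The last probe set, 213910_at, read 8.15 and 18.2, just under the background level on the HOXD9 siRNA array.

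**Figure D2:**
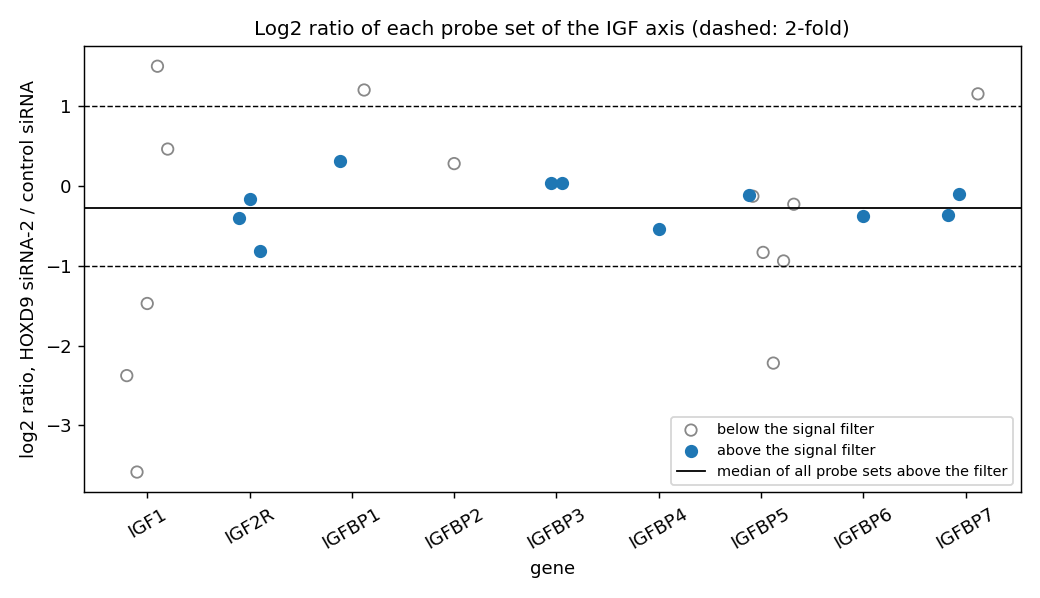
For each named gene (x axis) the points give the log2 ratio of HOXD9 siRNA-2 to control siRNA (y axis), 1 per probe set, filled above and open below the signal filter. The solid line is the median of all probe sets above the filter, -0.28, and dashed lines mark 2-fold. The filled points lie between -0.81 and 0.32, and all points past 2-fold are open.

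The dim probe sets made up all the large measured ratios. Of 13 below the filter, 4 had a measured ratio past 2-fold downward and 3 upward, or 53.8%, beside 51.3% of all 27306 probe sets below it. Of the 13, 12 had both signals within the background, and the share past 2-fold was near that of dim probe sets at large. In 3 of the 12 the control siRNA signal lay between the levels of the control transcripts on the 2 arrays, 11.4 and 18.4.

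**Figure D3:**
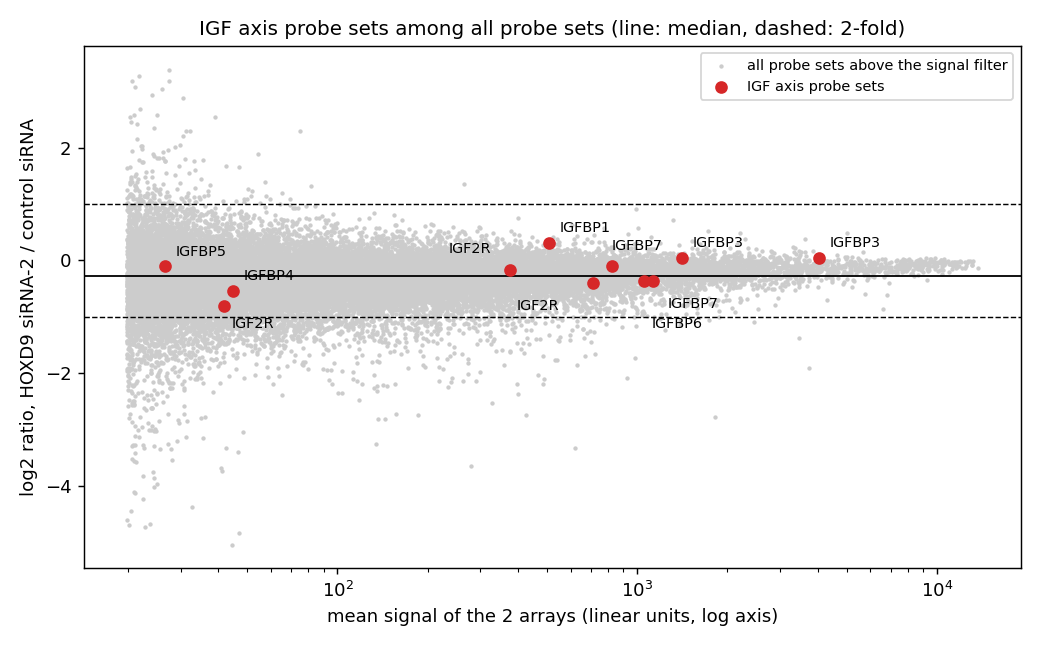
All probe sets above the signal filter are drawn in gray and those of the IGF axis in red, by mean signal (x axis, linear units on a log axis) and by the log2 ratio of HOXD9 siRNA-2 to control siRNA (y axis). The IGF axis points lie inside the gray cloud of all probe sets, IGFBP1 near its upper edge at 0.32, and none reaches the dashed lines of 2-fold.

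Other genes of the pathway were taken from a list of 33, also chosen with earlier results known, of which 26 were above the filter. Among the 26 genes, 2 were lower and 0 higher past 2-fold, beside 4.95% and 0.516% of all genes. The 2 were GHR and KAZALD1, with mean signals of 24.0 and 34.9, in the dimmest signal group. There 15.0% of probe sets passed 2-fold either way. The median log2 ratio of the 26 genes was -0.45 beside -0.25 over all genes, or -0.15 after centering. Of the 26, 15 lay below the median of all genes, a share that does not set the list apart.

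Among the receptors, IGF1R, the receptor through which both IGFs signal, read 94.2 with control siRNA and 81.2 with the HOXD9 siRNA on its brightest probe set. Log2 ratios on its 3 probe sets above the filter went from -0.26 to -0.18, close to the median of all genes, and from 0.04 to 0.12 after centering. INSR, the insulin receptor, read 39.7 and 47.8 on its brightest probe set, a log2 ratio of 0.27, and 32.3 and 32.2 on the other one above the filter, a ratio near 0. Of its 3 probe sets below the filter, one read 28.1 with control siRNA and fell within the background on the other array. It was at least 1.53-fold lower, or at least 1.24-fold on centered arrays. Another read 19.6 and 10.2, at least 1.06-fold lower, with no bound on centered arrays. The INSR probe sets thus did not point one way. M6PR, the smaller mannose 6-phosphate receptor, read 794 and 456, a log2 ratio of -0.80, or -0.50 after centering. IGF2R and M6PR, which share the sorting of lysosomal enzymes, had ratios of -0.40 and -0.80 on their brightest probe sets. After centering these were -0.10 and -0.50, and another IGF2R probe set stood at 0.14.

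The adaptors that dock at these receptors had the lowest median of the lists with more than 2 genes above the filter. All 7 were above it, none passed 2-fold, and their median log2 ratio was -0.68, or -0.38 after centering, with 5 of 7 below the median of all genes. IRS1, the main docking protein of IGF1R and the insulin receptor, read 525 with control siRNA and 325 with the HOXD9 siRNA. Its 3 probe sets agreed, with log2 ratios from -0.97 to -0.64, and stayed below 0 after centering, from -0.67 to -0.34. IRS4 read 36.5 and 22.2, a log2 ratio of -0.72, and IRS2, another docking protein of this family, gave -0.68 on one probe set and -0.16 on its dimmer one. GRB2, which links receptors to RAS, had -0.69 on its brightest probe set, but 0.19 on its dimmest. SHC1 and GRB10, the brightest of the adaptors, had -0.17 and -0.20 on their brightest probe sets, above the median of all genes. After centering these were 0.13 and 0.10. GRB14 had -0.56, or -0.26 after centering.

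The proteases that cut IGFBPs and the inhibitors of these proteases were read in 7 of 7 genes, with a median of -0.16 and none past 2-fold. The lowest were PAPPA2 at -0.53, ADAM12 and ADAM28, both metalloproteases of the ADAM family, at -0.50 and -0.49, each on its brightest probe set, or -0.23, -0.19 and -0.19 after centering. PAPPA2 read 32.8 on both arrays on its other probe set above the filter, and the 5 ADAM12 probe sets went from -0.50 to -0.04. Below the filter, a PAPPA2 probe set read 24.2 and 10.7, at least 1.32-fold lower, or 1.07-fold on centered arrays. Dimmer ADAM28 probe sets, also below the filter, were at least 1.14-fold and 1.06-fold lower, with no bound on centered arrays. PAPPA, which cuts IGFBP4, and its inhibitors STC1 and STC2 were also looked up for their role. PAPPA read 1416 with control siRNA and 1292 with the HOXD9 siRNA, a log2 ratio of -0.13, with its 9 probe sets above the filter from -0.71 to -0.01. STC1 had a log2 ratio of 0.05 and STC2 of 0.14 on the brightest probe sets.

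The growth hormone receptor GHR, which drives IGF1 expression in liver, was 1 of the 2 genes past 2-fold by measured ratio. It read 36.1 with control siRNA and 11.8 with the HOXD9 siRNA on its only probe set, the latter within the background, so that it was at least 1.96-fold lower, or 1.59-fold after centering. The bound thus falls short of 2-fold. The serum carrier IGFALS was within the background, as were all 3 probe sets of IGF2BP1. Of the other proteins that bind IGF2 mRNA, IGF2BP3 had log2 ratios from -0.55 to -0.43 on the 3 probe sets above the background, with a bound of 1.31-fold lower, or 1.06-fold on centered arrays, for its dimmest, and IGF2BP2 0.33 on its brighter and -0.73 on its dimmer one.

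Genes with an IGFBP-type domain were above the filter in 6 of 10 cases, with a median of -0.42, or -0.12 after centering. KAZALD1, the other gene past 2-fold, read 48.4 with control siRNA and 21.3 with the HOXD9 siRNA on its brightest probe set, a log2 ratio of -1.19, or -0.89 after centering, short of 2-fold. Another of its probe sets read 42.6 and 9.42, at least 2.32-fold lower (1.88-fold after centering), while the remaining one had a log2 ratio of 0.12. The matricellular protein CCN3 had -0.49 on its brightest probe set and -0.10 on its other one (-0.19 and 0.20 after centering), and CRIM1 had -0.47 on its brightest (-0.17 after centering). CCN2, another matricellular protein, went the other way, with 116 and 153 on its only probe set, a log2 ratio of 0.40, or 0.70 after centering, and is named here after its values were seen.

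**Figure D4:**
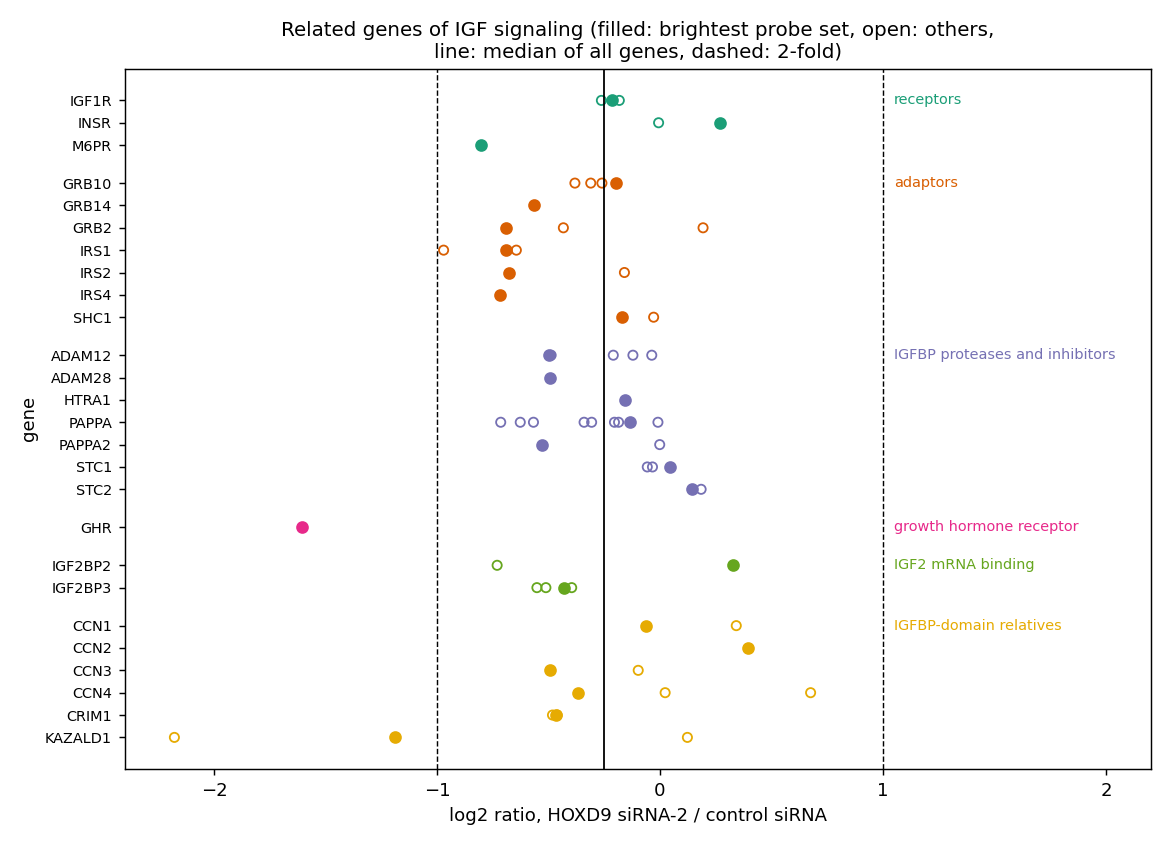
For 26 related genes (y axis) the probe sets above the signal filter are shown by log2 ratio (x axis, HOXD9 siRNA-2 relative to control siRNA), filled for the brightest probe set and open for others. The solid line is the median of all genes, -0.25, and dashed lines mark 2-fold. On their brightest probe sets GHR and KAZALD1 alone lie past 2-fold, and 5 of the 7 adaptors lie left of the solid line.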

How the data were processed

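Gene expression was measured on Affymetrix Human Genome U133 Plus 2.0 arrays, 1 per condition. The authors deposited linear signal intensities of probe sets, made by the manufacturer's recommendations with GeneSpring for analysis. GCOS is listed by the submitters' processing notes. How the arrays were scaled is not stated, and a difference in scaling shifts all log2 ratios together.

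Control probe sets (62) were set aside and log2 ratios computed for 54613 probe sets. The platform annotation gave 41091 of these 1 gene, 1801 several and 11721 none, and 41037 were matched to RefSeq (GRCh38.p14) by Entrez number. The signal filter was the median of the mean signals, 19.8, and a gene took its brightest probe set above it. The threshold was 2-fold. A signal at or under 18.4 was taken as background, and with 1 such signal a bound is given, with 2 no fold. Named were all members, HOXD9, GAPDH, related genes past 2-fold and up to 3 per related list with the largest ratio. IRS2, PAPPA, STC1, STC2 and unread genes were added by role, and SHC1, GRB10 and GRB14 so that every adaptor has a value. The members and lists were chosen with earlier results of these data known. Likeness of pattern between genes cannot be measured on 2 arrays. The 2-fold counts and the scalings were tested on simulated data, in which only probe sets above the signal filter were changed. The simulated noise was smaller than the spread in the dimmest group. The background bounds were not tested in this way. Tools were Python 3.11.15, numpy 2.4.6, pandas 2.3.3, statsmodels 0.14.6 and matplotlib 3.10.9. Precision is limited by having 1 array per condition.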

Additional observations from a re-analysis of the deposited data

How the results depend on the processing

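Each result was recomputed on arrays centered on their medians, on quantile-normalized arrays and after a loess trend (fraction 0.3) was taken off. The signal filter was dropped or raised to 75.7 (the 70th percentile), low signals were set to the 20th percentile of their array, _x_at and _s_at probe sets were dropped, or a gene's probe sets were averaged. The counts of members past 2-fold stayed at 0 under all but the setting without a signal filter, where 4 probe sets were lower, 3 were higher and 1 gene, IGF1, was lower, all from signals within or next to the background. The count of related genes lower by more than 2-fold was 2, and 1 after centering, after quantile normalization, after loess and without _x_at and _s_at probe sets, and 0 with the stricter filter. Without a filter 3 were lower and 2 higher. For these changed settings no share over all genes was computed, so their counts of related genes have no base beside them. As deposited, 51.3% of the 27306 dim probe sets that the filter leaves out passed 2-fold in either direction. The unfiltered counts alone are therefore no sign of a change. The median log2 ratio of member probe sets was -0.16 as deposited, 0.14 after centering, 0.12 after quantile normalization and 0.12 after loess, so its sign rests on the scaling. Under all settings with a value, the log2 ratio of the gene was for IGFBP1 from 0.32 to 0.62, IGFBP3 from 0.04 to 0.34, IGFBP4 from -0.53 to -0.18, IGFBP6 from -0.37 to -0.07, IGFBP7 from -0.36 to -0.06, IGF2R from -0.81 to -0.10, and IGFBP5 from -0.11 to 0.21, which changed sign. The -0.81 of IGF2R came without _s_at probe sets, which left only its dimmest one, and averaging its probe sets gave -0.46. With the background level taken per array, the IGF1 bound stayed at 1.08-fold. It could not move, because the shared level is that of the HOXD9 siRNA array. No paired analysis was possible because each condition had 1 array, and for the same reason no array could be left out.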

Other observations

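The 3 probe sets annotated to both IGF2 and the INS-IGF2 readthrough gene were outside the comparison. They read 2.40, 3.62 and 1.21 with control siRNA and 2.90, 1.12 and 1.64 with HOXD9 siRNA-2, all within the background of 18.4, so neither transcript was detectable through them.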
